A study of Mus musculus with 55 samples.

Results

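The genes described here encode the proteins of the cytosolic ribosome, chosen by symbol: Rpl or Rps followed by digits and at most 1 letter (a, x or l), together with Rpsa, Rplp0, Rplp1 and Rplp2. Of the 19938 genes with a probe set of their own in the probe annotation, 59 met this rule, 37 of the large subunit and 22 of the small one. They were measured in the cerebellum of C57Bl/6 mouse pups with Affymetrix Mouse Gene 1.0 ST arrays, where many short probes along a transcript are summarised into 1 value per probe set. Pups received subcutaneous chlorpyrifos oxon (CPO), the metabolite of the insecticide chlorpyrifos that blocks acetylcholinesterase, or dimethyl sulfoxide as vehicle, each day from postnatal day 4 to day 21, and tissue was taken on day 22. The 55 arrays formed 12 groups. Wild-type pups (Pon1+/+, called WT) gave 6 vehicle arrays, 6 at 0.35 mg/kg/day and 3 at 0.5 mg/kg/day. Pups labelled as lacking paraoxonase 1 (Pon1-/-, called KO), an esterase that hydrolyses CPO, gave 4, 5 and 3. Pups with a human PON1 transgene carrying glutamine (tgHuPON1Q192, called Q192) or arginine (tgHuPON1R192, called R192) at the variable position gave 4, 5 and 5 each. The promoter of the transgene, the number of founder lines and whether each array holds 1 animal were not stated in the labels, so p-values reflect just the scatter among these arrays, which may be technical.

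A ribosome joins a small subunit, which holds the messenger RNA and reads its codons, to a large subunit, which links the amino acids and passes the chain out through an exit tunnel. The proteins are made in matched amounts, and their messenger RNAs are among the most abundant of a cell. Most of them begin with a C followed by a run of pyrimidines, the 5′ terminal oligopyrimidine (TOP) motif, through which the kinase mTOR sets how much of them is translated.

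Promoter windows from RefSeq (GRCm38.p6) existed for 47 of the 59 genes, in 56 windows, since 8 genes had several annotated starts. Each window ran from 250 bases before the start to 50 bases from it on. Below are the 75 bases around the start (60 before it, then 15 from it on) for 3 genes of the dose comparisons (Rpl38, Rpl36a, Rps25), 2 that were higher in R192 (Rpl6, Rps6) and 1 that followed the others least (Rps15a). All are written 5′ to 3′ on the strand of the gene. Capitals mark the run of at least 5 pyrimidines beginning with C that starts nearest to the annotated start, among runs that reach within 10 bases of it.
Rpl38, chr11:114668520-114668594, plus strand: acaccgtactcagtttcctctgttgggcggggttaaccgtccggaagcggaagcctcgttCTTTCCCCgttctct
Rpl36a, chrX:134585594-134585668, plus strand: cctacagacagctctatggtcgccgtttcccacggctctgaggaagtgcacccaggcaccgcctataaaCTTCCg
Rps25, chr9:44407654-44407728, plus strand: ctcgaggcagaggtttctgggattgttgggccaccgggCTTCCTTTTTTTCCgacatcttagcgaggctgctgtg
Rpl6, chr5:121204441-121204515, plus strand: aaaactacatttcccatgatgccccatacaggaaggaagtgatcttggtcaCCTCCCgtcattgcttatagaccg
Rps6, chr4:86857353-86857427, minus strand: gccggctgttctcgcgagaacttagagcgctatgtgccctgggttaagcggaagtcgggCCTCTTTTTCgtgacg
Rps15a, chr7:118116133-118116207, minus strand: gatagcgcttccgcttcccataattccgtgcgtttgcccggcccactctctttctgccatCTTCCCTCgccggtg
In Rpl38 and Rps15a the marked run began at the annotated start itself. In Rps6 it began 1 base before the start, where a C followed by 4 pyrimidines also stood exactly at the start. A C followed by 4 pyrimidines stood exactly at the start in 10 of the 56 windows (17.9%), against 823 of the 32851 windows of all genes (2.51%). CTTTC on the strand of the gene was found in 57.1% of their windows and 34.8% of all windows. CCGGAA, the core bound by ETS factors, was found on either strand in 25 of the 56 (44.6%) against 14.9% of all. ATGGCGG, part of the site of the factor YY1, was found on either strand in 14.3% against 4.05%. TATAAA in the 50 bases before the start was found in 0 of the 56 windows and in 2.63% of all. These are matches of letters, and CTTTC can overlap the marked runs. Rps15a and Rpl38 both carry a run at the start, although Rps15a followed the mean of the other genes least.

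Facts of the whole data set that touch these genes were as follows. On the log2 scale the Pon1 probe set averaged 5.19 in WT (SD 0.24, n = 15) but 10.08 in KO (SD 0.19, n = 12), much as in Q192 (10.10, SD 0.14, n = 14) and R192 (10.13, SD 0.11, n = 14), so WT alone was low, against the label of a knockout, and the labels do not say where its probes lie relative to the disrupted part. The arrays are therefore called "labelled KO", and directions drawn from them carry this doubt. Xist, the transcript of the inactive X chromosome, was high in 3 arrays, WT 0.35 replicates 1 and 2 and KO vehicle replicate 4, and sex is not labelled. KO 0.35 replicate 5 shares its description number with arrays of R192 at 0.35, so counts are also given without these 4 arrays. Markers of granule neurons, the most numerous neurons of the cerebellum, averaged 10.44 ± 0.57 in WT (n = 15, range 8.99 to 11.12), 10.53 ± 0.23 in KO (n = 12, range 10.16 to 10.94), 10.38 ± 0.19 in Q192 (n = 14, range 9.98 to 10.75) and 10.34 ± 0.13 in R192 (n = 14, range 10.04 to 10.51).

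Of the 59 genes, 56 passed the level filter of 6.44, the 25th percentile of all genes, and entered the tests. The 3 below it are copies known for expression in other tissues: Rpl39l (mean 5.20), Rpl3l of muscle (5.99) and Rpl10l of testis (6.26). The probe sets of the 59 genes read from those values up to 12.97 for Rpl21, where Rpl10, Rps6, Rpl9 and Rpl4 followed at the upper end and Rpl12 and Rps27l at the lower one, with a median of 10.94 against 7.76 for all genes. The signal of a probe set depends on its probes, so levels are not compared between genes. Rps4l is listed as a transcribed pseudogene. A further 16 ribosomal protein genes are named only on probe sets of several symbols and were not analysed here. Ribosomal protein genes have many processed copies in the genome, and a probe set may also read transcripts of a near-identical copy.

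The 56 genes varied together. After taking out the group means and array date, each gene was set against the mean of the other genes over the 55 arrays, which share the normalisation of each array. The median Pearson r was 0.70, and 45 of the 56 had r above 0.5. Between pairs of the 56 genes the median r was 0.49, with 91.2% of the 1540 pairs above 0, whereas pairs of all 14949 genes tested had a median of -0.00020 and 49.98% above 0. Rps4x and Rpl36a, both X-linked, followed the rest most closely (Pearson r = 0.92 for both, Spearman rho = 0.85 for both, r = 0.88 and 0.90 without the 2 arrays farthest from the median), followed by Rps20 (r = 0.90), Rps12 (r = 0.89) and Rpl9 (r = 0.87).

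The genes that followed the rest least were Rps15a of the small subunit (r = -0.20, and -0.11 without the 2 farthest arrays), Rpl3l (r = -0.07), Rpl10l (r = 0.02), Rpl30 (r = 0.03) and Rpl39l (r = 0.04). Of these 5, 3 lie below the level filter, whereas Rps15a (mean 9.91) and Rpl30 (mean 9.49) do not. Among the tested genes the next were Rpl12 (r = 0.11) and Rpl14 (r = 0.18). Within groups the SD of the tested genes had a median of 0.12, against 0.13 for all genes tested. Rpl27a, Rpl28, Rpl10, Rpl13 and Rpl7a varied least (0.09 to 0.10), and Rps19, Rps9, Rps29 and Rps12 varied most among the tested genes (0.17 to 0.19), after the untested Rpl10l (0.20).

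**Figure D1:**
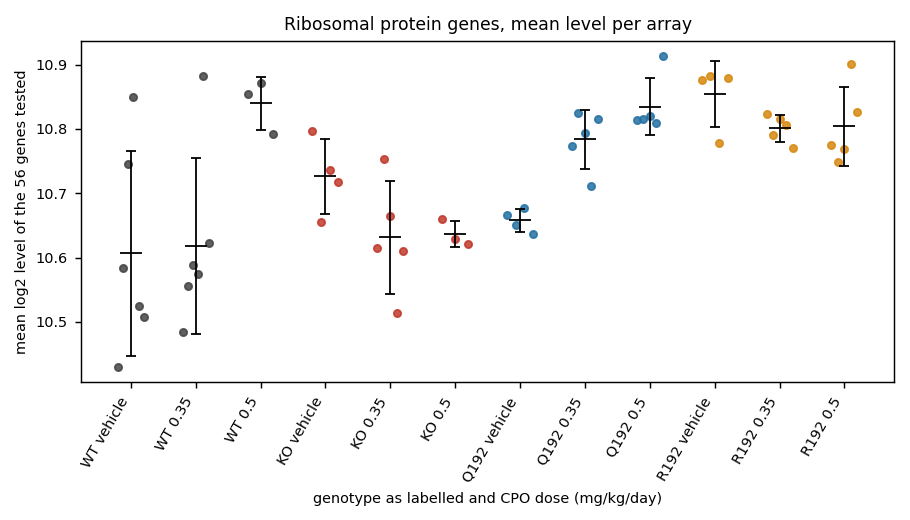
Mean log2 level of the 56 tested ribosomal protein genes in each of the 55 arrays (points), by genotype as labelled and CPO dose in mg/kg/day, with the mean and SD of each group (bars). WT vehicle spans 10.43 to 10.85, the 3 WT arrays at 0.5 lie between 10.79 and 10.87, and Q192 vehicle lies below both dosed Q192 groups.

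Averaged over the 56 genes, the level ran from 10.61 ± 0.16 in WT vehicle (SD, n = 6) to 10.85 ± 0.05 in R192 vehicle (n = 4). In descending order R192 vehicle was followed by WT at 0.5 (10.84 ± 0.04, n = 3), Q192 at 0.5 (10.83 ± 0.04, n = 5), R192 at 0.5 (10.80 ± 0.06, n = 5), R192 at 0.35 (10.80 ± 0.02, n = 5) and Q192 at 0.35 (10.78 ± 0.05, n = 5). Then came KO vehicle (10.73 ± 0.06, n = 4), Q192 vehicle (10.66 ± 0.02, n = 4), KO at 0.5 (10.64 ± 0.02, n = 3), KO at 0.35 (10.63 ± 0.09, n = 5) and WT at 0.35 (10.62 ± 0.14, n = 6). Neighbours among the first 6 groups of this order differed by less than their SDs, and so did those among the last 4. WT vehicle and WT at 0.35 were the widest groups: a single array of WT at 0.35 read 10.88 while the other 5 lay between 10.48 and 10.62. In bulk tissue, a lower share of cells rich in these transcripts and less of them per cell cannot be told apart.

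In the following 4 comparisons the medians of the large and the small subunit had the same sign. At 0.5 in WT the median difference from vehicle was +0.22 over the 34 tested large-subunit genes and +0.28 over the 22 small-subunit genes. In Q192 at 0.5 it was +0.17 and +0.20, in KO at 0.5 it was -0.10 and -0.09, and for R192 against KO it was +0.13 and +0.19. No difference between the subunits was tested.

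**Figure D2:**
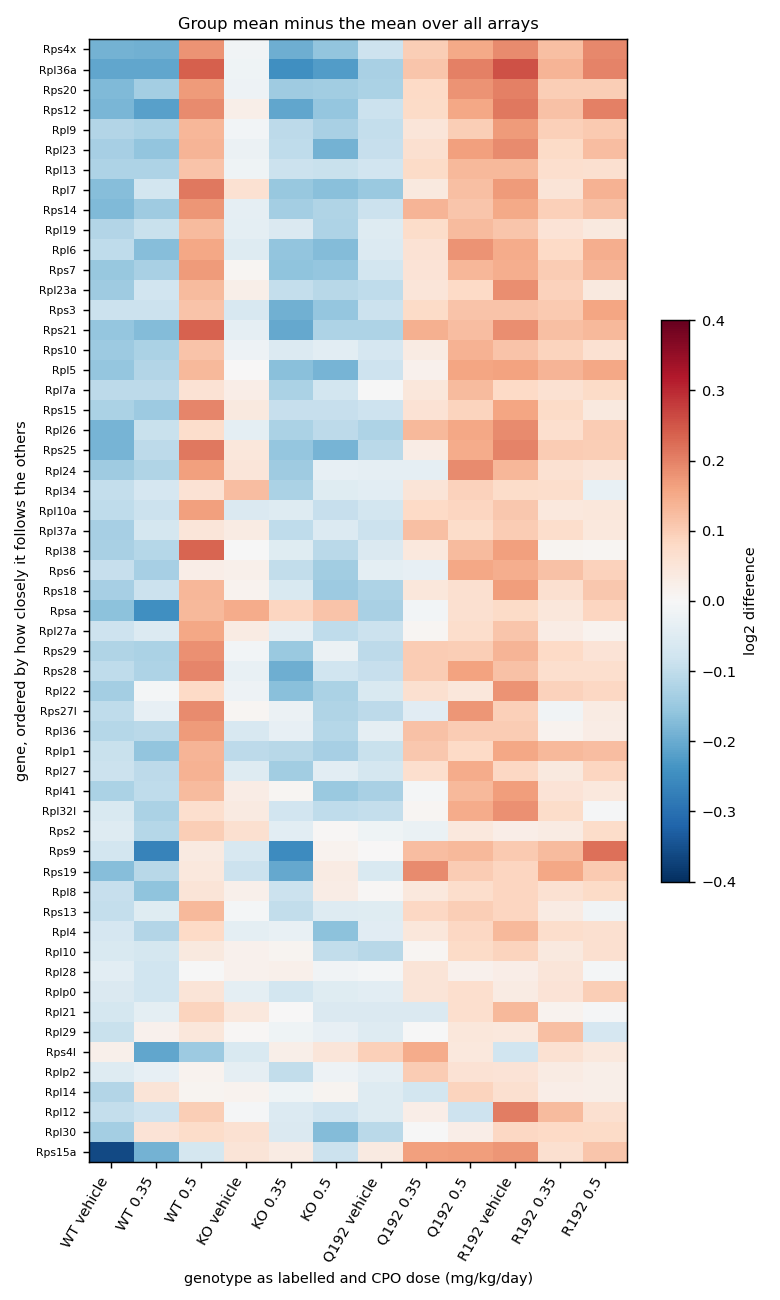
Heat map of the 56 tested genes (rows, ordered from the gene that followed the others most closely at the top to the one that followed least) in the 12 groups (columns). Colour is the group mean minus the mean over all arrays on the log2 scale, from -0.4 (blue) to 0.4 (red). WT at 0.5, both dosed Q192 groups and the R192 groups are red in most rows, and Rps15a in the bottom row is lowest in WT vehicle.

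Within WT the question was whether CPO changed these genes. At 0.5 mg/kg/day 55 of the 56 genes were higher than in vehicle and 3 rose at an adjusted p under 0.05 in limma: Rps14, Rpl38 and Rpl36a. Of all 14949 genes tested 0.248% rose (37 genes, with 118 that fell). The median difference was +0.24 on the log2 scale over the 56 genes and -0.01 over all genes tested, and 37 of the 56 had an unadjusted p under 0.05 (21.9% of all genes, in either direction). In 9 of the 56 (16.1%) the 3 dosed arrays all lay above the 6 vehicle arrays, which held for 5.69% of all genes.

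Rps14, a protein of the small-subunit platform where the messenger RNA leaves, read 11.53, 11.55 and 11.38 at 0.5, against a lowest, median and highest of 10.99, 11.10 and 11.32 in vehicle. The groups did not overlap, and the fitted rise was 0.35 (SE 0.09, limma adjusted p = 0.0355, higher in 3 of 3 arrays). Rpl38, which in the embryo favours translation of Hox transcripts, read 11.71, 11.84 and 11.76 against 11.15, 11.38 and 11.73. Here 1 vehicle array reached into the dosed range, and the rise was 0.36 (SE 0.09, limma adjusted p = 0.0362). Rpl36a, an X-linked gene of the large subunit, read 10.69, 10.81 and 10.71 against 9.98, 10.22 and 10.63. All 3 dosed arrays lay above all vehicle arrays, and the rise was 0.43 (SE 0.11, limma adjusted p = 0.0429).

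The next genes by p did not pass. Rps25, needed by some viral internal ribosome entry sites, differed by +0.39 (SE 0.11, limma adjusted p = 0.0592) without overlap of the groups. Rps20 differed by +0.34 (SE 0.10, adjusted p = 0.0633), and Rps7, a protein that also binds Mdm2, by +0.31 (SE 0.09, adjusted p = 0.0658). The gene that was lower was the pseudogene Rps4l (-0.17, SE 0.10, adjusted p = 0.31), whose other probe set read +0.18. Of the P stalk proteins Rplp0 differed by +0.11, Rplp1 by +0.22 and Rplp2 by +0.06, Rpl5 of the 5S particle by +0.28 and the p53-induced copy Rps27l by +0.29, with limma adjusted p of 0.422, 0.163, 0.749, 0.0955 and 0.116. Among the 39 tested genes with several probe sets, 155 of the 156 other probe sets had the sign of the chosen one in this comparison. For Rps14 the other probe set differed by +0.44, for Rpl36a by +0.45, and for Rpl38 the 3 others differed by +0.30 to +0.37.

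The count of 3 rested on single arrays. It was 0 without any 1 of the 3 dosed arrays or of WT vehicle replicates 1, 2, 5 and 6, and it was 29 without WT vehicle replicate 4, 17 without WT vehicle replicate 3, 18 without WT 0.35 replicate 5, 9 without KO 0.35 replicate 5 and 5 without KO vehicle replicate 1. Without the 3 arrays of high Xist it was 5, and 21 when KO 0.35 replicate 5 was left out too, an alternative chosen after seeing the data. It was 0 with each array centred on its own median and 35 with arrays weighted by quality. These counts stand without those of all genes in the same runs, so they show no share particular to these genes. The median difference stayed between +0.20 and +0.28 in every alternative run, +0.27 on the first array date alone and +0.21 on the second, with 0 genes passing on either date alone. In the same comparison 13 of 14 granule neuron markers were lower, with a median of -0.17 and none passing: their mean level was 10.11 ± 0.53 (n = 3, range 9.49 to 10.44) against 10.32 ± 0.72 in vehicle (n = 6, range 8.99 to 11.12). With the mean of these markers as a covariate the ribosomal protein genes had a median of +0.20, with 3 passing. Of the 9 microglia markers 5 were higher, and their mean was 8.31 ± 0.09 (range 8.23 to 8.40) against 8.25 ± 0.22 (range 7.95 to 8.64); all 6 choroid plexus markers were lower (median -0.41), none of either list passed, and their part in the result was not tested.

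At 0.35 mg/kg/day in WT, 32 of the 56 genes were higher and 24 lower, with a median of +0.01, and limma called 0 of them, beside 0.00669% of all genes. An unadjusted p under 0.05, reached by 20.3% of all genes, was seen in 1 gene that was higher, Rps15a (+0.16, SE 0.07, adjusted p = 0.183), and 1 that was lower, Rps4l (-0.23, SE 0.08, adjusted p = 0.136). None of the 56 had groups without overlap, beside 0.0803% of all genes that lay higher. Next came Rpl30 (+0.18, adjusted p = 0.268) and Rpl22 (+0.13, adjusted p = 0.29) on the higher side, and Rps9 (-0.20, adjusted p = 0.311) and Rpl8 (-0.07, adjusted p = 0.595) on the lower side. Without WT 0.35 replicate 4 the count was 1.

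**Figure D3:**
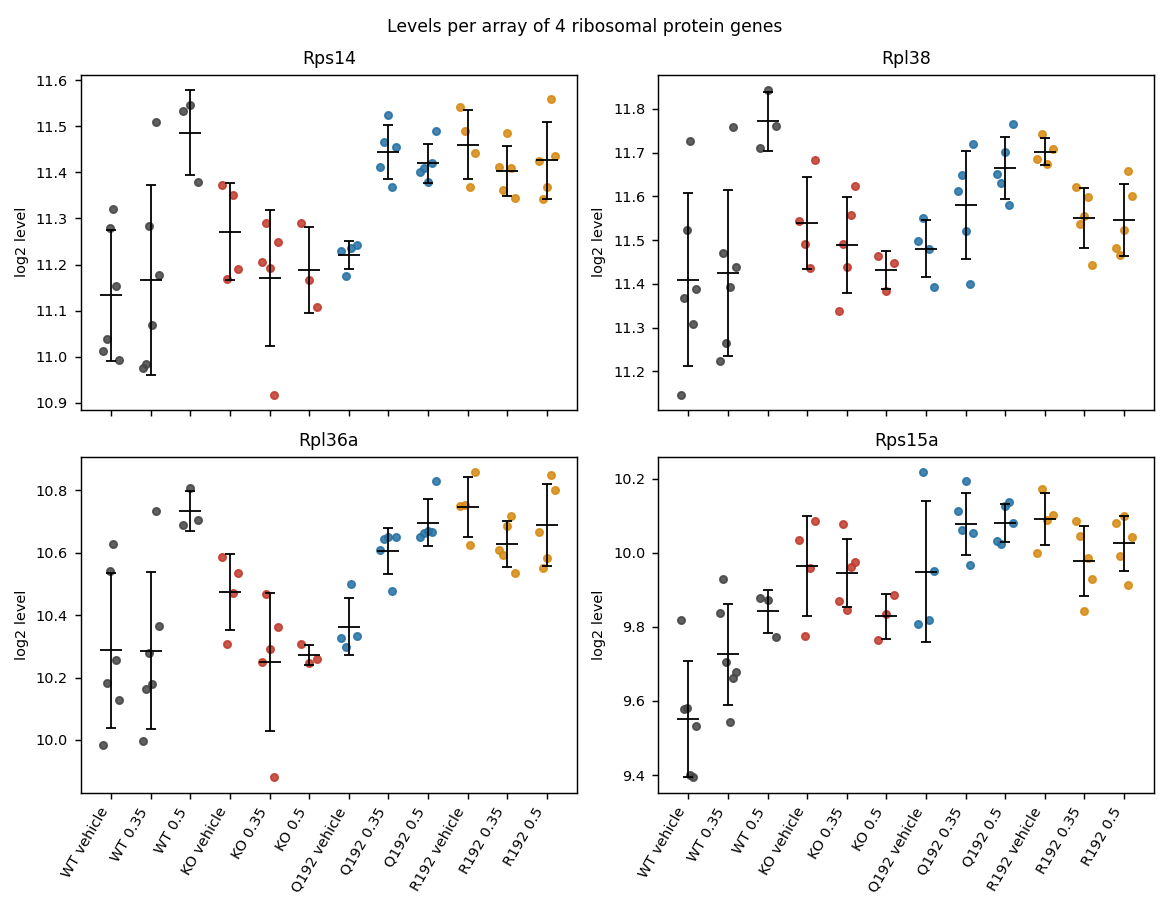
Log2 level in each array (points) of Rps14, Rpl38, Rpl36a and Rps15a, by genotype as labelled and CPO dose in mg/kg/day, with group mean and SD (bars). In the first 3 genes WT at 0.5 sits above most WT vehicle arrays, and Rps15a is lowest in WT vehicle (9.39 to 9.82).

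In arrays labelled KO the same genes lay on the other side of vehicle. At 0.5 mg/kg/day 49 of the 56 were lower (median -0.09, against +0.03 over all genes), and limma called 0 of them beside 0% of all genes. In all 2 of the 56 had an unadjusted p under 0.05, against 12.8% of all genes. In 9 genes (16.1%) the 3 dosed arrays all lay below the 4 vehicle arrays, beside 3.59% of all genes. Rpl30 differed by -0.25 (SE 0.12, limma adjusted p = 0.387), Rps25 by -0.24 (SE 0.12, adjusted p = 0.387) and Rps18 by -0.17 (SE 0.09, adjusted p = 0.387). On the higher side were Rps4l (+0.12, adjusted p = 0.562), Rps19 (+0.11, adjusted p = 0.712) and Rps9 (+0.08, adjusted p = 0.783). Rpl36a read 10.31, 10.25 and 10.26 at 0.5 against 10.59, 10.31, 10.47 and 10.53 in vehicle, so that 1 vehicle array touched the dosed range.

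At 0.35 mg/kg/day in arrays labelled KO, 52 of the 56 were lower with a median of -0.10, and 7 had an unadjusted p under 0.05 (6.44% of all genes), while limma called 0 of them and 0% of all genes. None had groups without overlap, beside 0.161% of all genes that lay lower. The largest differences by p were Rpl34 (-0.25, SE 0.08, adjusted p = 0.66), Rpl36a (-0.25, SE 0.10, adjusted p = 0.66) and Rps12 (-0.25, SE 0.11, adjusted p = 0.66). Of the 4 genes on the higher side, the 3 of smallest p were Rps4l (+0.08), Rpl36 (+0.02) and Rpl10a (+0.0041), with adjusted p of 0.745, 0.924 and 0.984.

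In Q192 the genes lay above vehicle at both doses, although none passed. At 0.5 mg/kg/day 54 of the 56 were higher (median +0.19, against -0.0040 over all genes), and 33 had an unadjusted p under 0.05 (13.2% of all genes), while limma called 0 of them and 0% of all genes. In 31 of the 56 (55.4%) the 5 dosed arrays all lay above the 4 vehicle arrays, which held for 3.53% of all genes. Rps20 read 10.92 to 11.11 (median 10.98) at 0.5 against 10.59 to 10.79 (median 10.67) in vehicle, a difference of +0.31 (SE 0.09, limma adjusted p = 0.332). Rpl36a read 10.65, 10.66, 10.67, 10.67 and 10.83 against 10.33, 10.30, 10.50 and 10.33, a difference of +0.34 (SE 0.11, adjusted p = 0.332), and Rpl23 differed by +0.27 (SE 0.08, adjusted p = 0.332). The 2 lower genes were Rps4l (-0.05, adjusted p = 0.826) and Rpl12 (-0.04, adjusted p = 0.881).

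Granule neuron markers moved with this comparison: 14 of 14 were lower (median -0.43, none passing), with a mean level of 10.20 ± 0.19 (n = 5, range 9.98 to 10.40) against 10.56 ± 0.13 (n = 4, range 10.44 to 10.75). With their mean as a covariate the ribosomal protein genes had a median of +0.13. At 0.35 mg/kg/day 54 of the 56 were higher (median +0.13), 10 had an unadjusted p under 0.05 (2.05% of all genes), and limma called 0 of them and 0% of all genes. Groups did not overlap for 10 genes (17.9%), beside 0.702% of all genes. Rps14 read 11.41, 11.47, 11.52, 11.37 and 11.46 against 11.23, 11.18, 11.24 and 11.24, without overlap, and differed by +0.22 (SE 0.08, limma adjusted p = 0.999). Rpl26 (+0.26) and Rps21 (+0.26) also had an adjusted p of 0.999, as had the 2 lower genes Rpl14 (-0.03) and Rps2 (-0.01).

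In R192 the genes started from the highest vehicle level and lay slightly below it at both doses. At 0.35 mg/kg/day 49 of the 56 were lower (median -0.07) and at 0.5 mg/kg/day 48 were lower (median -0.06), with none at an unadjusted p under 0.05 at either dose (3.58% and 1.02% of all genes). limma called 0 of them and 0% of all genes at each dose. Groups did not overlap for 3 genes at 0.35 (5.36%, beside 0.569% of all genes) and for 1 at 0.5 (1.79%, beside 0.401%). Rpl38 read 11.62, 11.54, 11.56, 11.60 and 11.44 at 0.35 and 11.48, 11.47, 11.52, 11.66 and 11.60 at 0.5, against 11.69, 11.74, 11.67 and 11.71 in vehicle. All dosed arrays lay below all vehicle arrays, with differences of -0.17 (SE 0.08, limma adjusted p = 0.921) and -0.15 (SE 0.08, adjusted p = 1). The dosed groups of one genotype share their vehicle arrays, so these 2 values are not independent.

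At 0.35 in R192 the other lower genes by p were Rps18 (-0.12) and Rpl23 (-0.12), both with an adjusted p of 0.921, and the higher ones were Rps4l (+0.16, adjusted p = 0.921), Rpl29 (+0.07, adjusted p = 0.924) and Rps19 (+0.09, adjusted p = 0.932). At 0.5 they were Rpl23a (-0.15) and Rpl32l (-0.18), and Rps4l (+0.12), Rplp0 (+0.06) and Rps9 (+0.11), all with an adjusted p of 1. The other probe sets of Rps4l (-0.05) and Rps9 (-0.02) had the opposite sign. On the mean of the 4 genotypes, 0.35 mg/kg/day gave a median of -0.0041 with 34 of 56 lower and none at an unadjusted p under 0.05 (1.83% of all genes). At 0.5 mg/kg/day the median was +0.07, with 55 of 56 higher and 11 at an unadjusted p under 0.05 (4.84% of all genes), led by Rps10 (+0.10), Rpl27 (+0.11) and Rps14 (+0.11), each with an adjusted p of 0.991. limma called 0 of the 56 genes and 0% of all genes at both doses of this mean.

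**Figure D4:**
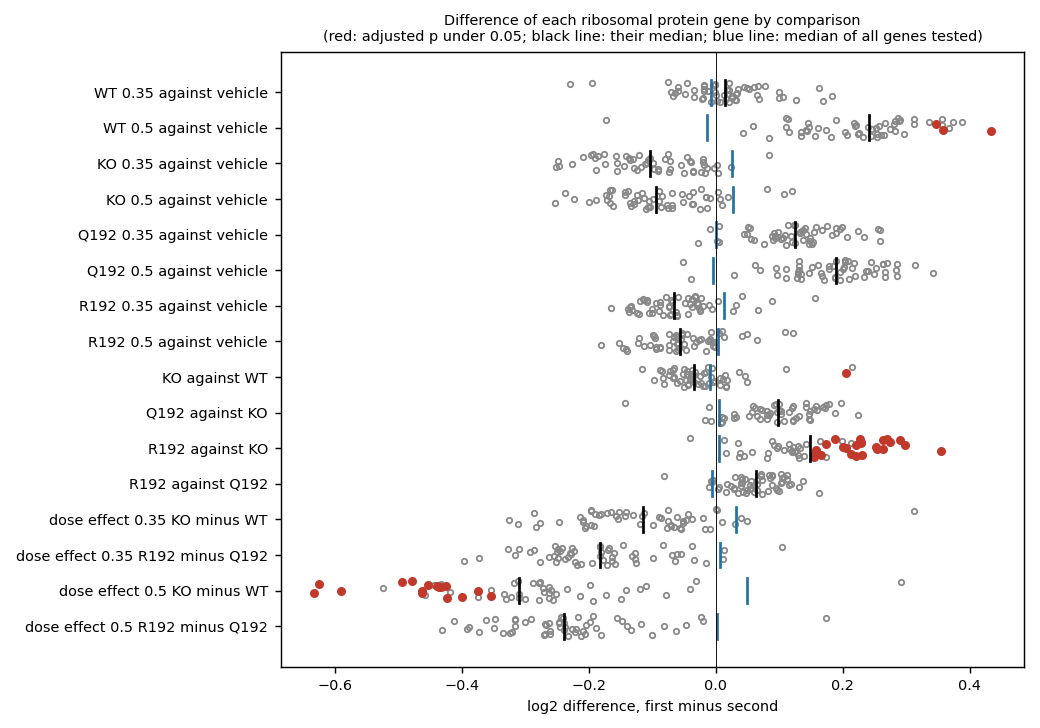
Log2 difference of each of the 56 tested genes (points) in 16 comparisons, first named group minus second, or effect of the dose in one genotype minus that in the other. Red points passed at an adjusted p under 0.05, black lines are the medians of the 56 genes and blue lines those of all genes tested. The black lines lie to the right of the blue ones in WT at 0.5, Q192 and R192 against KO, and to the left in KO and in the differences of dose effects.

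Whether the response depended on genotype was tested as the difference of dose effects. At 0.5 mg/kg/day the effect in arrays labelled KO minus that in WT was below 0 for 55 of the 56 genes, with a median of -0.31 against +0.05 over all genes. In limma 16 of the 56 passed, all of them lower, beside 3.57% of all genes (534 lower, with 841 higher), and 36 had an unadjusted p under 0.05, against 31.7% of all genes in either direction. The 16 were Rpl36a (-0.63, SE 0.16), Rps25 (-0.62, SE 0.16), Rpl7 (-0.59, SE 0.17), Rps4x (-0.49), Rps7 (-0.48), Rpl38 (-0.46), Rpl5 (-0.46), Rps20 (-0.45), Rps18 (-0.44), Rps15 (-0.44), Rps14 (-0.43), Rps15a (-0.42), Rpl23 (-0.42), Rpl23a (-0.40), Rpl6 (-0.37) and Rpl27a (-0.35). Their limma adjusted p lay between 0.0370 and 0.0498. Over the 39 tested genes with several probe sets, passing or not, 156 of 156 other probe sets had the sign of the chosen one. Of the 16, Rps15a and Rps20 have just 1 probe set each.

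For Rps25 the 3 WT arrays at 0.5 read 11.57, 11.64 and 11.57, above WT vehicle (10.92, 11.16 and 11.44 as lowest, median and highest), while the KO arrays read 11.18, 11.31 and 11.09 against 11.60, 11.22, 11.44 and 11.45. In WT the dosed arrays lay above every vehicle array, and in KO the ranges overlapped through 1 vehicle array. For Rps7 the WT arrays at 0.5 read 12.25 to 12.30 (n = 3) against 11.74 to 12.16, and the KO arrays 11.91 to 11.98 (n = 3) against 12.01 to 12.24, without overlap in either genotype. By role, the passing genes included Rpl5, which carries the 5S RNA into the large subunit, Rpl23a at the rim of the exit tunnel (1 of 4 tested genes of the tunnel) and Rps14 (1 of 5 at the entry and exit of the messenger RNA). None of the 3 proteins of the P stalk, which recruits elongation factors, passed: Rplp0 -0.12, Rplp1 -0.23 and Rplp2 -0.04, with adjusted p of 0.499, 0.235 and 0.861.

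The count of 16 fell to 0 without any 1 of WT 0.5 replicates 2 and 3, WT vehicle replicates 1 and 5, KO vehicle replicates 1 and 4 and KO 0.5 replicates 1 and 3, and it was 30 without WT vehicle replicate 4. It was 0 without the 3 arrays of high Xist, with a median of -0.33. When KO 0.35 replicate 5 was left out too, an alternative chosen after seeing the data, it was 19. With all arrays kept and centred on their medians it was 7. The counts of these runs stand without those of all genes and show no share particular to these genes. Of the 16 calls, those of Rpl6, Rps4x and Rps15 were lost in 42, 41 and 27 of the 55 runs without 1 array. The others were lost in 8 to 11 of them. The median lay between -0.37 and -0.26 in every alternative run. Granule neuron markers moved the other way in 13 of 14 (median +0.32, none passing), the endothelial marker Flt1 passed (+0.63, limma adjusted p = 0.0397), and with their mean as a covariate the median was -0.26 with 13 genes passing.

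The 3 other differences of dose effects gave 0 calls in limma. At 0.35 in KO minus WT the median was -0.11 with 50 of 56 lower, beside 0.00669% of all genes called. There 5 lower genes and 1 higher gene had an unadjusted p under 0.05, which 25.02% of all genes had in either direction, led by Rpl22 (-0.28, adjusted p = 0.0991), Rpl34 (-0.28, adjusted p = 0.127) and Rpl7 (-0.33, adjusted p = 0.149), and by Rps4l (+0.31, adjusted p = 0.118) on the higher side. The count was 3 without KO 0.35 replicate 5 and 1 without WT 0.35 replicate 4. For R192 minus Q192, the median was -0.18 at 0.35 (53 of 56 lower, 15 at an unadjusted p under 0.05, which 5.56% of all genes had) and -0.24 at 0.5 (55 of 56 lower, 27 at an unadjusted p under 0.05, which 6.93% of all genes had), beside 0% of all genes called at each dose. Rps20 (-0.41, SE 0.13), Rpl23a (-0.33, SE 0.10) and Rpl32l (-0.43, SE 0.14) led at 0.5 with an adjusted p of 0.672, and Rpl26 (-0.40), Rps18 (-0.29) and Rps14 (-0.29) at 0.35 with 0.766. Differences at both doses share the vehicle arrays.

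Genotypes were compared over all 3 treatments. In R192 against KO 55 of the 56 genes were higher, with a median of +0.15 against +0.01 over all genes, and 24 of the 56 rose in limma, 13 of the large subunit and 11 of the small one. Of all genes 2.66% rose (397, with 442 that fell), and 44 of the 56 had an unadjusted p under 0.05, against 22.4% of all genes in either direction. The 10 largest rises were those of Rpl36a, Rps12, Rps4x, Rps21, Rps9, Rps3, Rpl5, Rpl6, Rplp1 and Rpl23.

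Rpl36a had a lowest, median and highest of 10.53, 10.68 and 10.86 in the 14 R192 arrays against 9.88, 10.31 and 10.59 in the 12 arrays labelled KO. The ranges overlapped at their edges, and the fitted rise was 0.35 (SE 0.06, limma adjusted p = 0.000455). Rpl6 read 11.51, 11.56 and 11.71 against 11.15, 11.35 and 11.47, and Rps3, which lines the entry of the messenger RNA, read 10.74, 10.82 and 10.94 against 10.23, 10.57 and 10.72. Both were without overlap, with rises of 0.25 (SE 0.05, adjusted p = 0.00104) and 0.26 (SE 0.05, adjusted p = 0.00123) in limma. The other 7 rose by 0.30 (Rps12), 0.29 (Rps4x), 0.27 (Rps21), 0.27 (Rps9), 0.26 (Rpl5), 0.25 (Rplp1) and 0.23 (Rpl23).

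All 24 were higher than the KO mean in 14 of 14 R192 arrays except Rpl23a and Rpl27, which were higher in 13. The 24 were picked for their rise in these same arrays, so this count adds no separate evidence. By role, Rpl4, Rpl23a and Rpl26 passed of the 4 genes of the exit tunnel, Rplp1 of the 3 of the P stalk, Rps3 and Rps14 of the 5 at the messenger RNA path, and Rpl5, Rps7 and Rpl26 of the 5 tested genes of a partial list of those mutated in Diamond-Blackfan anaemia. Rps6, the substrate of S6 kinase, rose by 0.19 (SE 0.05, limma adjusted p = 0.0116). The pair of P stalk genes that did not pass read +0.12 (Rplp0, adjusted p = 0.0877) and +0.10 (Rplp2, adjusted p = 0.248).

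Leaving out any 1 array kept the count of R192 against KO between 16 and 30. Without the 3 arrays of high Xist and KO 0.35 replicate 5, an alternative chosen after seeing the data, it was 32. These counts stand without those of all genes in the same runs, so they show no share particular to these genes. Within each array date none of the 56 passed, with medians of +0.16 and +0.17, while an unadjusted p under 0.05 was reached by 30 and 24 of them. Of all genes 5 rose and 5 fell on date 1, and 51 rose and 70 fell on date 2. All 14 granule markers and 5 of 6 Purkinje cell markers were lower in R192 than in KO (medians -0.17 and -0.23, 1 Purkinje gene passing), while 8 of 9 microglia markers (median +0.16) and 14 of 16 brainstem markers (median +0.19, none passing) were higher. The markers that passed were Slc1a6 of Purkinje cells (-0.50), P2ry12 (+0.30) and Aif1 (+0.20) of microglia, S100b (+0.23) and Aqp4 (+0.18) of astrocytes and Slco1a4 of endothelium (+0.34). With the granule marker mean as a covariate 15 genes passed and the median was +0.13. Microglia markers had a median of 8.11 in R192 (range 8.01 to 8.45) and 8.01 in KO (range 7.74 to 8.17), and Purkinje markers averaged 10.88 ± 0.14 (range 10.57 to 11.05) in R192 and 11.09 ± 0.27 in KO (range 10.68 to 11.53); their part in the result was not tested.

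Averaged over the 3 treatments, Q192 lay between KO and R192. In vehicle alone the mean of the 56 genes was lower in Q192 (10.637 to 10.677) than in KO (10.655 to 10.796), with overlapping ranges. Over the 3 treatments 52 of the 56 were higher than in KO (median +0.10). Of these, 28 had an unadjusted p under 0.05 (9.53% of all genes), while limma called 0 of the 56, beside 0.401% of all genes. Rpl6 came closest (+0.19, SE 0.05, limma adjusted p = 0.0582), then Rpl36a (+0.22, adjusted p = 0.123) and Rps3 (+0.17, adjusted p = 0.155). The chosen probe set of Rpsa, which is also known as the laminin receptor, read lower (-0.14, SE 0.06, adjusted p = 0.386) while its 4 other probe sets read higher (+0.06 to +0.29), so its direction was not settled. Slightly lower were also Rpl21 (-0.02) and Rps2 (-0.01). Leaving out 1 array raised the count to 1 in 7 cases, namely KO 0.35 replicate 2, KO 0.5 replicate 1, Q192 0.35 replicate 4, WT 0.35 replicate 5 and WT vehicle replicates 1, 3 and 4. R192 against Q192 gave a median of +0.06 with 51 of 56 higher and 9 at an unadjusted p under 0.05 (9.97% of all genes), and limma called 0, beside 0.0736% of all genes. Rpl12 (+0.16, adjusted p = 0.427), Rps18 (+0.11, adjusted p = 0.464) and Rpl9 (+0.10, adjusted p = 0.468) led, and the lower genes with the smallest p were Rps4l (-0.08), Rpl36 (-0.01) and Rps13 (-0.01).

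Averaged over the 3 treatments, the 56 genes differed little between KO and WT. Their mean level differed by dose: at 0.5 mg/kg/day KO arrays (10.62 to 10.66) lay below WT arrays (10.79 to 10.87). In vehicle KO arrays (10.655 to 10.796) lay within the WT range (10.430 to 10.850) and had the higher mean. On the average of treatments 43 of the 56 were lower in KO, with a median of -0.03. Rps15a alone passed, as 1 of the 13 that were higher, beside 0.174% of all genes that rose (26 genes, with 30 that fell). Rps15a, a protein of the small subunit, had a lowest, median and highest of 9.77, 9.92 and 10.09 in the 12 KO arrays and 9.39, 9.68 and 9.93 in the 15 WT arrays. The ranges overlapped, all 12 KO arrays lay above the WT mean, and the rise was 0.21 (SE 0.05, limma adjusted p = 0.0264). In Q192 and R192 it read 9.81, 10.06 and 10.22 and 9.84, 10.04 and 10.17, so WT was the low group, lowest in vehicle. The difference of Rps15a between KO and WT depended on dose, since its 0.5 effects also differed between them (-0.42).

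The call of Rps15a was lost on leaving out KO 0.35 replicate 2, KO 0.5 replicate 2 or 3, KO vehicle replicate 1 or 4, or WT 0.5 replicate 1 or 3, each giving a count of 0, and the count was 2 without KO 0.35 replicate 5, WT 0.35 replicate 5 or WT vehicle replicate 4. The chosen probe set of Rpsa came next on the higher side (+0.22, SE 0.06, limma adjusted p = 0.104), while its 4 other probe sets read between -0.15 and +0.06. Its levels were 11.10, 11.46 and 11.53 in KO against 10.78, 11.10 and 11.55 in WT, ranges that overlapped. Rps4l (+0.11) followed on that side, and Rps3 (-0.12, adjusted p = 0.917), Rpl6 (-0.08) and Rpl22 (-0.08) had the smallest p on the lower side. All 9 microglia markers were lower and 13 of 14 granule markers higher in KO than in WT (medians -0.17 and +0.12, none passing), with microglia markers at a median of 8.01 (range 7.74 to 8.17) in KO and 8.20 (range 7.70 to 8.64) in WT, and their part in the result was not tested.

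Other genes of translation and of mitochondria were read from lists by the same tests. The mean of 17 elongation factor and other TOP genes, such as Eef1b2 and Tpt1, followed the mean of the 56 genes over the 55 arrays after group means and date were taken out (Pearson r = 0.83, Spearman rho = 0.77, r = 0.77 without the 2 farthest arrays). The values for 70 respiratory chain and ATP synthase subunits were 0.74, 0.67 and 0.59, for 77 mitochondrial ribosomal proteins 0.70, 0.61 and 0.55, and for 25 initiation factors 0.51, 0.52 and 0.45. They were -0.43, -0.42 and -0.44 for the 12 genes of mTORC1 and its translation targets, and -0.55, -0.34 and -0.34 for the 14 granule markers. All these values come from the same arrays and share their normalisation.

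**Figure D5:**
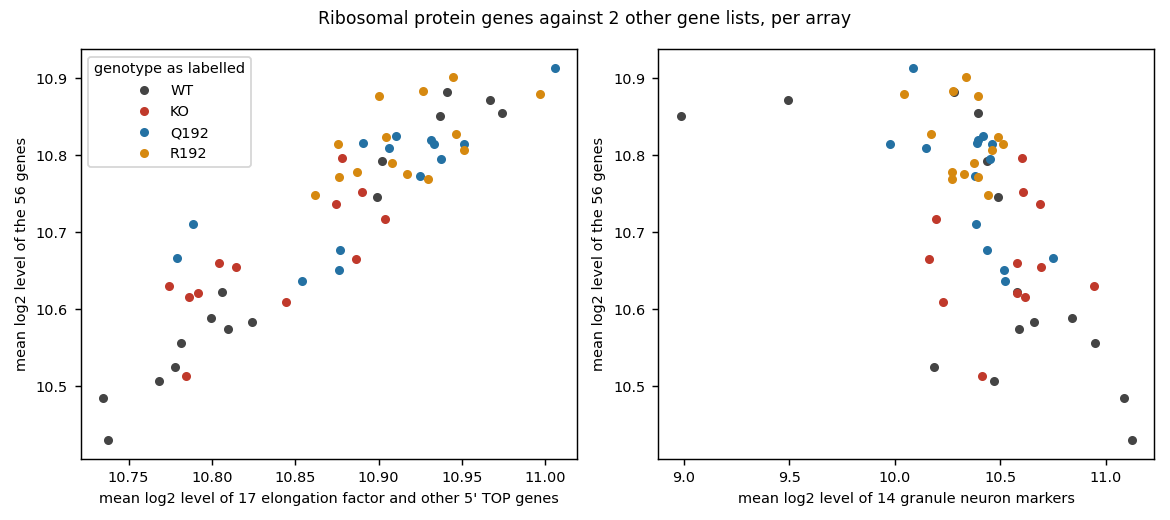
Mean log2 level of the 56 ribosomal protein genes in each of the 55 arrays (vertical axes) against the mean log2 level of 17 elongation factor and other 5′ TOP genes (left) and of 14 granule neuron markers (right), coloured by genotype as labelled. Points rise along the TOP genes and tend to fall along the granule markers, where 2 WT arrays lie below 9.5.

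In WT at 0.5, 10 of the 17 TOP genes were higher and none passed (median +0.12), and 59 of the 70 respiratory subunits were higher (median +0.18), of which 4 rose in limma: Ndufs6 (+0.41, adjusted p = 0.0361), Ndufa6 (+0.40, adjusted p = 0.0323), Ndufb5 (+0.36, adjusted p = 0.0377) and Ndufa4 (+0.27, adjusted p = 0.0336). Of the 77 mitochondrial ribosomal proteins 60 were higher (median +0.11) and none passed, and 11 of the 12 mTORC1 genes were lower (median -0.09) with none passing. Initiation factors (15 of 25 higher) and ribosome assembly factors (18 of 34 higher) had medians of +0.05 and +0.01 with none passing. In Q192 at 0.5 the medians were +0.10 (TOP genes), +0.15 (respiratory subunits), +0.11 (mitochondrial ribosomal proteins) and -0.10 (mTORC1), again with none passing, and in KO at 0.5 they were -0.10, -0.03, -0.0019 and +0.12.

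For the difference of the 0.5 effects between KO and WT, 4 of the 17 TOP genes passed as lower and 1 as higher. The lower ones were Npm1, a nucleolar protein (-0.76), Eif3e (-0.72), Gas5 (-0.66) and Tpt1 (-0.38), and the higher one was the poly(A)-binding protein gene Pabpc1 (+0.31), with limma adjusted p from 0.0370 to 0.0480. Of the 12 mTORC1 genes 3 passed, all higher: Tsc2 (+0.60), Rptor (+0.59) and Mtor (+0.53). This list joins genes of unlike roles, so a shared direction gives no direction of the pathway, and mTORC1 activity was not measured. Ribosome assembly factors split, with 5 higher, such as Bop1 (+0.55) and Rrp12 (+0.52), and 3 lower, Nop10 (-0.58), Nop58 (-0.56) and Riok1 (-0.48). Among initiation factors Eif3b (+0.55) and Eif4g3 (+0.45) were higher and Eif3m (-0.65), Eif2s2 (-0.65) and Eif4a2 (-0.38) lower. Among respiratory subunits 18 were lower and none higher, and among mitochondrial ribosomal proteins 7 were lower and none higher.

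In R192 against KO 14 of the 17 TOP genes were higher and 2 passed, Eef1b2 (+0.20, limma adjusted p = 0.0256) and Eif3h (+0.16, adjusted p = 0.00732). Mtor (-0.29, adjusted p = 0.00672) and Tsc2 (-0.23, adjusted p = 0.0303) were lower. Of the respiratory subunits 14 rose, led by Uqcrh (+0.22, adjusted p = 0.00563), and none fell. Of the mitochondrial ribosomal proteins 11 rose and Mrpl20 fell (log2 difference -1.12, SE 0.10, limma adjusted p = 1.28e-10), and against KO it was also lower in Q192 (-1.08, adjusted p = 3.56e-10), where Ndufs6 was the 1 respiratory subunit that passed (+0.27). Ribosome assembly factors gave 3 rises, Nop58 (+0.22), Wdr12 (+0.20) and Sbds (+0.15), and initiation factors gave 3 rises, Eif3m, Eif3i and Eif3k, with a fall of Eif4g3 (-0.26, adjusted p = 0.000777).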

How the data were processed

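The deposited values per probe set were taken as log2 expression levels. Per the submitters' processing notes the authors made them with Affymetrix Expression Console 1.1 and RMA, which corrects background, gives all arrays one distribution and summarises probes, so a level is relative to the other probes of its array. The notes name no log base, and the range (1.15 to 14.80) led to base 2. Of 35557 probe sets, 21789 had 1 symbol, and for each gene the probe set of the highest mean over all arrays was used. Genes above the 25th percentile (6.44), without 4 sex-linked genes, gave 14949 tested.

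limma 3.58.1 in R 4.3.3 fitted all 55 arrays at once, with a mean per group and the array date (2 dates), arrays of one description number treated as correlated (0.13), a variance trend and 42 residual degrees of freedom. The labels do not say what that number stands for. The 3 arrays of WT at 0.5 and the 3 of KO at 0.5 carried just 2 such numbers each, and the 6 of WT vehicle carried 4. Counts of arrays may therefore overstate the number of separate units. Benjamini-Hochberg adjustment ran over all tested genes in each of 18 comparisons. Passing means an adjusted p below 0.05. The number of arrays limits the precision. The fit was tested on simulated data. Alternatives left out the date, the number correlation, the level filter, single arrays or doubted arrays, kept 1 date, or added a replicate block, quality weights, centring, the mean of probe sets or a marker covariate.

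The genes, lists and rules were chosen with earlier results of these data known. All genes that passed were named where they were 20 or fewer, otherwise the 10 largest. Where fewer than 6 passed, the 3 higher and 3 lower genes of smallest p were added as values. Genes that follow the others least or vary most or least, role groups and passing genes of the other lists (at most 6 a list, with counts for longer ones) were also named. Promoter sequences are those of RefSeq on GRCm38.p6, and figures were drawn in Python 3.11.15.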

Additional observations from a re-analysis of the deposited data

Results flagged for a closer look

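The difference of the 0.5 mg/kg/day effects between KO and WT passed in limma for 16 of the genes: Rpl36a (-0.63), Rps25 (-0.62), Rpl7 (-0.59), Rps4x (-0.49), Rps7 (-0.48), Rpl38 (-0.46), Rpl5 (-0.46), Rps20 (-0.45), Rps18 (-0.44), Rps15 (-0.44), Rps14 (-0.43), Rps15a (-0.42), Rpl23 (-0.42), Rpl23a (-0.40), Rpl6 (-0.37) and Rpl27a (-0.35). The mean of the 56 genes at 0.5 lay above the vehicle mean in 3 of 3 WT arrays (+0.23) and below it in 3 of 3 KO arrays (-0.0895). At 0.35 it lay above in 5 of 5 Q192 arrays (+0.13) and below in 5 of 5 R192 arrays (-0.0527). These opposite shifts of the mean were not tested.

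Single arrays stood apart from their group in 26 of 290 sets of levels checked. There the gap to the nearest array, divided by the range of the group, exceeded Dixon's 95% critical value. By its construction chance flags about 1 in 20 such sets, and levels of genes on the same arrays are not independent. WT 0.35 replicate 5 was the highest of its group in the mean of the 56 genes (10.88) and in Rpl23a (11.98), Rpl26 (9.29), Rpl27 (10.67), Rps15 (11.71), Rps18 (12.11), Rps20 (11.06) and Rps21 (10.97). Q192 0.5 replicate 5 was the highest in the mean (10.91), Rpl36a (10.83) and Rpl9 (12.80), and replicate 2 of that group in Rps6 (12.88). R192 vehicle replicate 3 was the lowest in the mean (10.78), Rpl9 (12.66) and Rps18 (12.00). Q192 0.35 replicate 4 was the lowest in Rpl36a (10.48), Rpl5 (11.60), Rps6 (12.32) and Rps7 (11.95). R192 0.5 replicate 4 was the highest in Rpl7 (11.42) and Rps15 (11.66), and R192 0.35 replicate 4 in Rpl4 (12.51) and Rps18 (12.14). The others were Rpl4 in KO 0.35 replicate 5 (highest, 12.57), Rps14 in KO 0.35 replicate 4 (lowest, 10.92) and Rpl9 in KO vehicle replicate 2 (lowest, 12.40).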

How the results depend on the processing

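With the replicate number as a block, 1 gene passed in WT at 0.5 (3 in the fit reported) and 0 in KO against WT (1), and the count was 24 in R192 against KO and 19 for the difference of the 0.5 effects between KO and WT. Residuals of arrays with the same replicate number had a mean r of -0.02, against 0.0039 for arrays of other replicate numbers. Such a mean cannot settle whether replicate numbers pair the arrays. The count for WT at 0.5 was 18 without the correlation of description numbers, 35 with quality weights, 0 with arrays centred, 11 among genes above the median level, 0 on each date, 5 without the arrays of high Xist, 21 without these and KO 0.35 replicate 5 (chosen after seeing the data) and 16 with the brainstem marker covariate. Quality weights gave 14 in Q192 at 0.5, 3 for the mean of genotypes at 0.5, 3 in KO against WT, 23 in Q192 against KO, 44 in R192 against KO and 31 for the difference of the 0.5 effects. That difference gave 7 with arrays centred, 5 without the level filter, 0 on each date and 0 without the arrays of high Xist. R192 against KO gave 0 on each date and 15 with the granule covariate. KO against WT gave 0 on each date and 2 with either covariate. WT at 0.35 gave 1 on date 2, where 569 of all genes rose and 1474 fell. Q192 against KO gave 1 without the number correlation, with the high-Xist arrays left out, and with either covariate, and 2 without those arrays and KO 0.35 replicate 5. The median for R192 at 0.5 was +0.038 on date 2. The causes were not tested, beyond the fewer arrays on each date. Except for WT at 0.35 on date 2 and R192 against KO on each date, these counts stand without those of all genes. The same holds for the other counts of alternative runs in the Results and in the next paragraph. Such counts therefore do not show a share particular to these genes.

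Leaving out 1 array gave counts of 0 to 1 for WT at 0.35, 0 to 29 for WT at 0.5, 0 to 2 for KO against WT, 0 to 1 for Q192 against KO, 16 to 30 for R192 against KO, 0 to 3 and 0 to 30 for the differences of effects between KO and WT at 0.35 and 0.5, and 0 to 0 elsewhere. Over 44 named calls and 14 other settings, 456 of 616 were kept, 160 lost and 0 reversed. For the same calls, leaving out 1 array kept 2120 of 2420, with 300 lost and 0 reversed. Medians kept their sign over 69 settings except for WT at 0.35 (6 below 0), R192 at 0.5 (1 above 0) and the mean of genotypes at 0.35 (11 above 0).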
